A study of Drosophila melanogaster with 10 samples.

Results

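Salivary glands of Drosophila melanogaster larvae in which RNAi was directed against the linker histone H1 were compared with glands in which RNAi was directed against nau (nautilus), a muscle transcription factor used as the control target. The 3 arrays of glands labelled H1 RNAi (a, b and c) and the 3 of glands labelled nau RNAi (a, b and c) were taken from the sample titles. These are 6 of the 10 samples of the series, and the other 4 are Kc cells given dsRNA against GFP or H1. Both gland groups came from transgenic flies that carried an RNAi construct under Tub-Gal4, crossed at 18 °C and moved to 29 °C for knockdown from the embryo onwards. Tub-Gal4 is a ubiquitous driver, so both groups shared the driver and the temperature shift, and RNAi was not restricted to the gland. The labels used here give no larval age, stage, sex or number of animals per array, and do not state that arrays came from separate animals. The p-values therefore rest on the spread among arrays of a label, and that spread may be technical.

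The linker histone H1 binds the nucleosome where DNA enters and leaves it and helps to compact chromatin. In the fly it is needed for the structure of polytene chromosomes and for silencing in heterochromatin. The larval salivary gland is built of large polytene cells that do not divide. Late in larval life, under the steroid hormone ecdysone, these cells make glue proteins, which are heavily O-glycosylated mucins and small secreted peptides. The glue passes through the endoplasmic reticulum (ER) and the Golgi into secretory granules and later fixes the pupal case to a surface.

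Each value is a log2 intensity of a probe set, as RMA values deposited by the authors. Arrays correlated with r from 0.9909 to 0.9937 among nau-labelled glands, from 0.9886 to 0.9933 among H1-labelled glands and from 0.9385 to 0.9526 between the groups. The first principal component held 81.2% of the variance and separated the groups. The second held 6.87% and set H1 array a (score −32.1) apart from H1 arrays b and c (scores above 10). Signal was taken as background at or under 3.59, the 95th percentile of 17 Tag probe sets designed to match no fly transcript. The brightest probe set of each array read 14.29 to 14.34, so a level close to this ceiling may understate a difference. With 3 arrays per group, the number of arrays limits the precision.

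The nau probe set read 6.02, 5.54 and 5.50 on nau-labelled arrays a, b and c and 3.53, 3.53 and 3.36 on H1-labelled arrays a, b and c. It was thus above background in all 3 glands in which nau was the labelled target, and at background in all 3 glands in which it was not. The nau level was lower in H1-labelled glands by at least 2.10 on the log2 scale, with the background as the bound (limma, adjusted p = 6.44e-05). This goes against the labels as a check of knockdown, so groups are called by their labels throughout, and every direction below rests on those labels. A contribution of construct RNA to the nau signal was not tested. No probe set used here under a single gene symbol is named for the His1 genes, so H1 mRNA itself was not read. The 402 probe sets annotated with several symbols were given no gene name here, so one for His1 among them would have been missed. BigH1, the germline form of H1, read 3.48, 3.67 and 3.66 against 3.69, 3.73 and 3.88 and did not pass the test (log2 change 0.16, adjusted p = 0.267).

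Control probe sets at the 3′ and 5′ ends of 3 transcripts, which measure how far the labelled RNA reaches from its 3′ end, also moved with the label. The 3′ minus 5′ difference for actin was 1.98, 1.96 and 1.80 in nau-labelled glands and 2.48, 2.29 and 2.11 in H1-labelled glands. For GAPDH it was 2.11, 2.18 and 2.09 against 2.45, 2.63 and 2.52, and for eIF-4a it was 2.07, 2.22 and 2.23 against 2.40, 2.52 and 2.52. The groups did not overlap for any of the 3 transcripts, with larger differences in H1-labelled glands by 0.38, 0.41 and 0.31. The exact permutation test gave p = 0.10 for each (two-sided, n = 3 and 3), the smallest p that this design allows. Spiked Bacillus controls averaged 7.41 ± 0.03 against 6.79 ± 0.09 (SD, n = 3 and 3). The E. coli controls averaged 9.88 against 9.65 and the 18S rRNA controls 11.63 against 11.26, both lower in H1-labelled glands with no overlap. The P1 controls averaged 13.41 ± 0.03 against 13.40 ± 0.04. The Tag probe sets averaged 3.18 ± 0.03 against 2.98 ± 0.05, so background itself was lower in H1-labelled glands. The part of these control differences in the gene results was not tested.

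**Figure D1:**
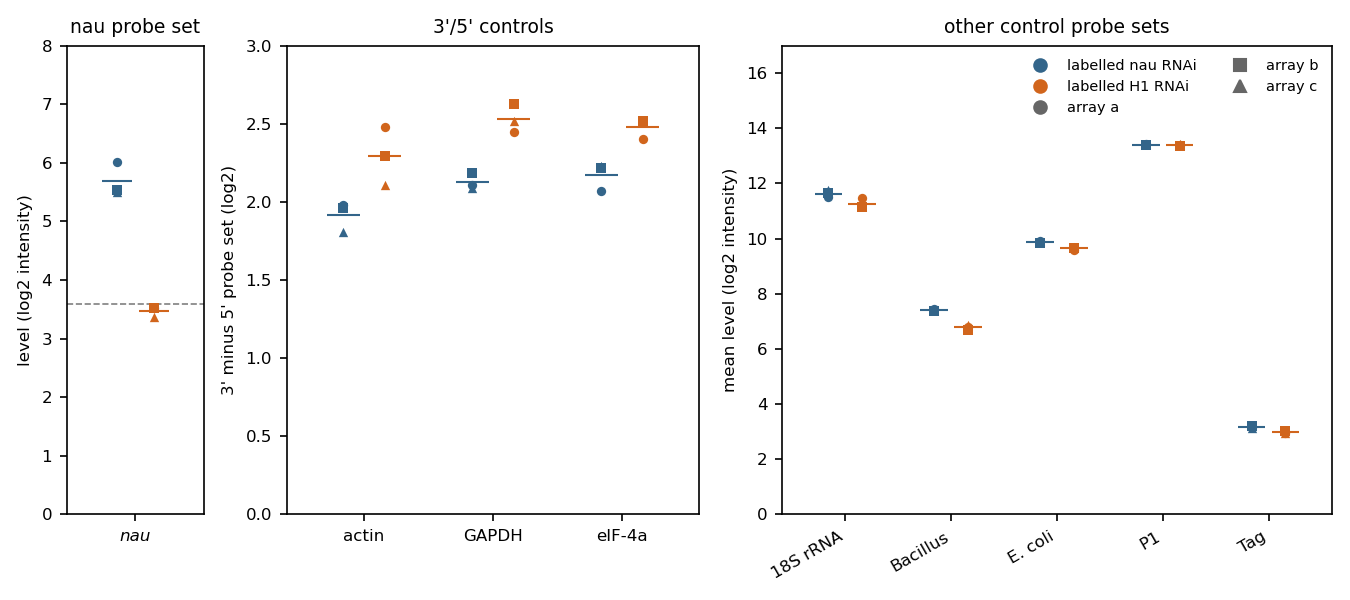
Left, log2 intensity of the nau probe set by array; middle, log2 difference between the 3′ and 5′ control probe sets of 3 transcripts; right, mean log2 intensity of other control probe sets. Blue marks nau-labelled and orange H1-labelled glands, marker shape the array letter, bars the means of 3 arrays and the dashed line the background of 3.59. The nau signal was high on the 3 nau-labelled arrays only, and all 3 control differences were larger on the H1-labelled arrays.

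Large parts of the transcriptome differed between the groups, in both directions and, on the deposited scale, in nearly equal numbers. Of 18769 probe sets, 3038 (16.2%) were higher and 3302 (17.6%) lower in H1-labelled glands (limma on the 6 gland arrays, adjusted p under 0.05). The balance depended on scaling: median centring gave 2786 higher and 3830 lower, and quantile normalization 2733 and 3640. Per gene, 2442 of 11982 named genes were higher (20.4%) and 2355 were lower (19.7%). These shares are the background against which the gene groups below are read, together with the median change of all named genes, −0.04. The groups did not overlap for 9198 probe sets (49.0%). In bulk tissue, fewer cells of a type and less RNA per cell cannot be told apart, and this holds for every change below.

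The 2 directions differed in size and in level. Of the called genes, 1135 were at least 2-fold higher and 659 at least 2-fold lower, and 187 were at least 8-fold higher against 55 at least 8-fold lower. Among the 35 genes that rose at least 32-fold and the 6 that fell as far, the largest changes are named below. Genes of intermediate level leaned upwards: of 1749 genes with a mean level between 5 and 7, 675 were higher (38.6%) and 377 lower (21.6%). Of the 1738 genes between 9 and 11, 461 were higher (26.5%) and 592 lower (34.1%). With a mean level at or under background, 67 of 3004 genes were higher and 161 lower, in glands whose Tag signal was lower too.

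**Figure D2:**
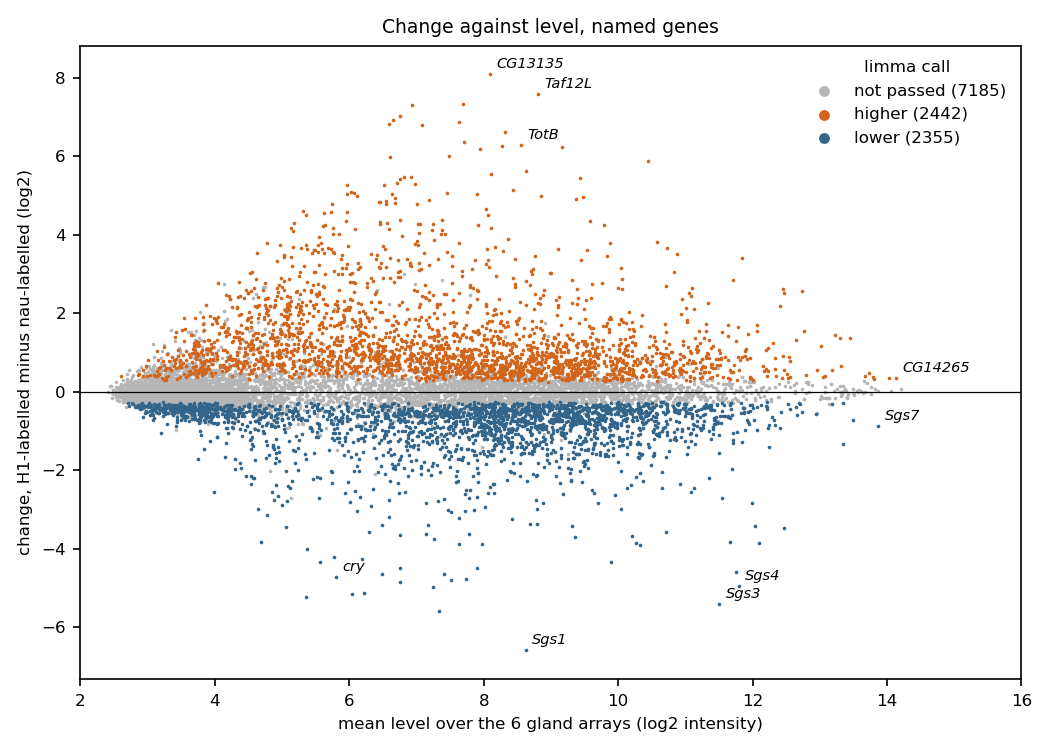
Log2 change (H1-labelled minus nau-labelled) against mean log2 intensity over the 6 gland arrays, one point per named gene. Orange marks the 2442 genes called higher, blue the 2355 called lower and grey the genes that did not pass. Increases reached 8.09 on the log2 scale (CG13135), and the glue gene Sgs1 lies lowest.

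Most products of the gland itself fell. Of 12 glue and gland products measured, 10 were lower, 1 was higher and 1 did not pass, with a median log2 change of −2.40. Sgs4, a large O-glycosylated glue mucin, read 14.23, 14.29 and 14.32 in nau-labelled glands, where it ranked 2 by signal among named genes, and 8.53, 10.26 and 9.18 in H1-labelled glands, where its rank was 1868. Probe sets differ in response, so ranks order signals and not transcript numbers and are read only between the groups. Sgs1, another glue mucin, read 11.73, 12.01 and 12.01 against 4.52, 5.84 and 5.62, the largest decrease of any called gene. In both cases every H1-labelled array lay far below every nau-labelled array. The log2 changes were −4.95 ± 0.39 (SE; adjusted p = 0.0001) and −6.59 ± 0.32 (adjusted p = 1.53e-05), or a 31-fold and a 96.3-fold lower signal.

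The glue genes did not fall alike. Sgs3, a glue mucin, read 14.14, 14.26 and 14.23 in nau-labelled glands but 9.87, 11.39 and 5.15 in H1-labelled glands, so that array c lay 6.24 below array b. It fell by 5.40 on the log2 scale (adjusted p = 0.023), a call lost without nau array a, b or c and with the robust prior, with changes between −6.70 and −3.58 when single arrays were left out. Sgs5 read 14.18, 14.24 and 14.22 against 11.03, 11.21 and 9.96, and Sgs5bis read 13.93, 14.003 and 14.10 against 10.43, 9.66 and 10.40. Both fell on every H1-labelled array, by 3.48 and 3.85. The small glue peptides Sgs7 and Sgs8 kept bright signals, with Sgs7 at 14.29, 14.31 and 14.34 against 13.37, 13.37 and 13.55 (rank 1 and rank 36) and Sgs8 at 14.01, 14.02 and 14.002 against 12.64, 12.51 and 12.92 (rank 9 and rank 94). They fell by 0.88 and 1.32, from levels at the ceiling.

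The new-glue genes, a cluster transcribed in larval glands, split by member. The level of ng3 was 13.96, 13.88 and 13.75 against 13.02, 13.40 and 12.99, which fell by 0.72 (adjusted p = 0.00551). The level of ng4 was 5.66, 5.54 and 5.67 against 8.81, 8.40 and 9.83, an increase of 3.39 with no overlap between the groups (adjusted p = 0.000278). For ng2 the values 11.44, 11.56 and 10.59 against 11.56, 12.11 and 11.70 met at nau array b and H1 array a and did not pass (log2 change 0.59, adjusted p = 0.138). The change of ng1, −0.59, did not pass when nau array a or b, or H1 array a or c, was left out.

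Of the 25 named genes with the brightest signals in nau-labelled glands, CG7606 went from rank 7 to 1721 (14.01, 14.06 and 14.07 against 10.21, 10.04 and 8.10), CG31698 from rank 16 to 886 (13.70, 13.73 and 13.83 against 10.63, 9.66 and 10.70) and Eig71Ee, an ecdysone-induced gland product, from rank 24 to 1396 (13.53, 13.57 and 13.63 against 10.04, 10.09 and 9.11). These 3 genes fell by 4.60, 3.42 and 3.83. The 8 ribosomal protein genes among the 25, which encode subunits of the ribosome, kept ranks between 13 and 27, and none passed the test. CG14265 had the highest level in H1-labelled glands, at 14.29, 14.31 and 14.31 against 13.98, 13.95 and 13.95, a difference of 0.34 close to the ceiling that did not pass without H1 array b.

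Among 8 gland transcription factors measured, 4 were lower, 1 higher and 3 did not pass. The level of sage, a basic helix-loop-helix factor restricted to the salivary gland, was 12.28, 12.34 and 12.47 against 9.79, 9.996 and 9.93. The level of fkh (fork head), the FoxA factor that acts with sage on glue and secretory genes, was 9.64, 9.89 and 9.77 against 8.83, 8.71 and 8.86, and that of bowl, an odd-skipped family zinc finger factor, was 8.53, 8.31 and 8.50 against 7.49, 7.18 and 7.32. The groups were apart for all 3 factors, with log2 changes of −2.45 ± 0.10, −0.97 ± 0.10 and −1.11 ± 0.12 (adjusted p = 8.06e-06, 0.000396 and 0.000366). The Hox gene Scr, which specifies the gland, read 5.03, 5.87 and 6.12 against 6.08, 5.46 and 5.07, with full overlap (adjusted p = 0.792). The change of sens (−0.67) lost its call without H1 array b, nau array a or nau array b, and that of eyg (0.72) without H1 array c, nau array a or nau array b. The collagen prolyl hydroxylases PH4alphaSG1 and PH4alphaSG2, which are gland markers, did not pass either (log2 changes −0.20 and 0.10).

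The enzymes that build mucin O-glycans moved in 1 direction. Of 13 measured, 9 were lower and none higher, with a median of −0.68. Pgant9, a polypeptide GalNAc transferase that modifies Sgs3 and shapes the glue granules, read 12.04, 12.07 and 12.04 against 8.58, 8.07 and 8.45, with no overlap and a log2 change of −3.68 ± 0.14 (adjusted p = 6.27e-06). Pgant1, of the same enzyme family, read 11.84, 11.70 and 11.51 against 9.92, 9.88 and 9.10, and Pgant6 read 11.69, 11.50 and 11.37 against 9.95, 10.12 and 9.93. Pgant3 fell by 1.48, and C1GalTA, which extends the first sugar to the core 1 glycan, fell by 1.08. The sulfate donor transporter sll showed no such difference (9.68, 9.43 and 9.31 against 9.41, 9.44 and 9.78, adjusted p = 0.74).

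Genes for entry into the ER were lower nearly throughout. Of 21 genes for ER translocation and N-glycosylation, 18 were lower, 1 higher and 2 did not pass, with a median of −0.73, and both directions kept these counts without each array in turn. The signal peptidase, which cuts the leader peptide from secreted proteins, held the largest changes. Its small subunit Spase12 read 12.73, 12.60 and 12.70 against 10.63, 10.78 and 10.71, and its catalytic subunit twr read 12.98, 12.90 and 12.98 against 11.45, 11.60 and 11.57. Neither subunit overlapped between the groups, with log2 changes of −1.97 ± 0.091 and −1.42 ± 0.09 (adjusted p = 1.2e-05 and 4.37e-05). The other subunits Spase25 and Spase22-23 fell by 1.28 and 1.18.

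The channel subunit Sec61alpha, through which nascent chains enter the ER, read 12.01, 11.94 and 11.89 against 10.92, 10.92 and 10.77 and fell by 1.08. All 6 measured proteins of the signal recognition particle, which carries ribosomes to the ER, were lower, between −0.74 (Srp54k) and −0.40 (Srp9). The catalytic oligosaccharyltransferase subunits Stt3A and Stt3B, which attach N-glycans, were −0.14 and −0.25 and did not pass. Trp1, a translocation factor, was the member that rose, by 0.43 (adjusted p = 0.00948). These secretory genes without a rank among the 5 largest changes of their list were chosen after their values were seen.

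Of 19 genes for transport between the ER and the Golgi, in COPII and COPI vesicles and Golgi structure, 17 were lower, 1 was higher and 1 did not pass, with a median of −1.26. Tango1, an ER exit site receptor for large cargo, read 11.13, 11.19 and 11.15 against 9.77, 9.76 and 9.73. Sec24CD, a cargo adaptor of the COPII coat, read 11.31, 11.14 and 11.02 against 9.60, 9.52 and 9.56, and the golgin GM130, a tether at the cis-Golgi, read 11.23, 11.20 and 11.02 against 9.50, 9.48 and 9.60. All 3 were more than 1.3 lower on every H1-labelled array than on any nau-labelled array. The changes were −1.40 ± 0.082, −1.60 ± 0.10 and −1.62 ± 0.10 (adjusted p = 3.04e-05, 4.65e-05 and 3.44e-05).

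Golgin84, a golgin of the Golgi rim, fell by 1.85, the stacking protein Grasp65 by 1.59 and the golgin Gmap by 1.57. The exception was zetaCOP, a subunit of the COPI coat, at 7.89, 8.14 and 8.10 against 8.66, 8.66 and 8.86, which rose by 0.68 (adjusted p = 0.00308), while the other 5 coat subunits measured, alphaCOP to epsilonCOP, fell by 0.92 to 1.26. Golgin245 did not pass (log2 change −0.12).

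**Figure D3:**
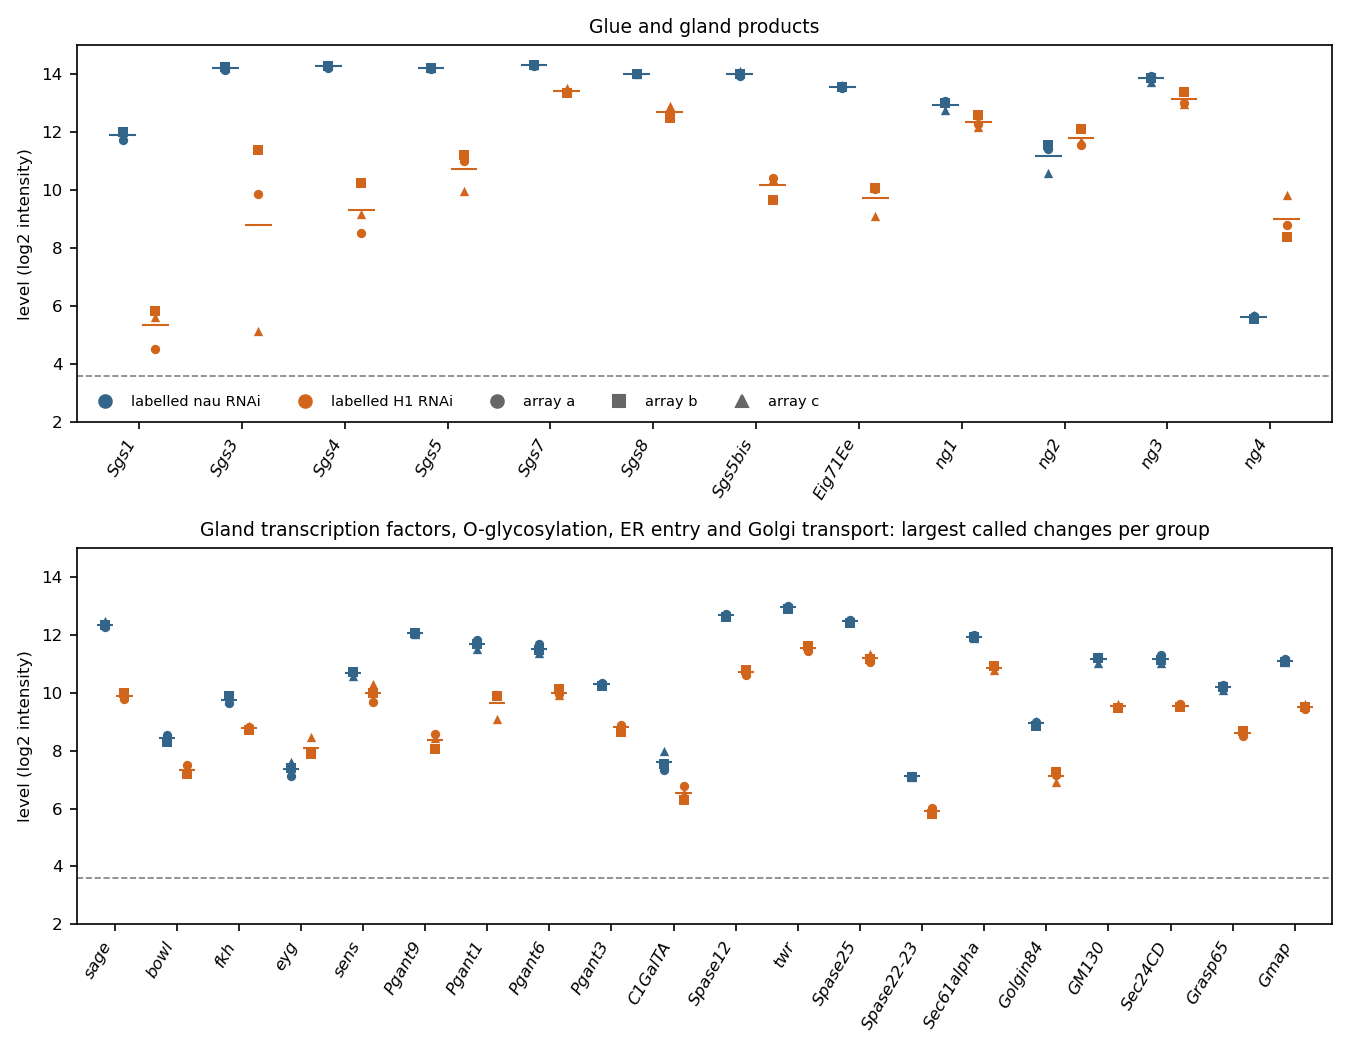
Log2 intensity by array of the 12 glue and gland products (top) and of the 5 largest called changes in each of 4 groups, gland transcription factors, mucin O-glycosylation, ER entry and Golgi transport (bottom). Blue marks nau-labelled and orange H1-labelled glands, marker shape the array letter, short bars the means of 3 arrays and the dashed line the background. Apart from ng4 and eyg, each gene that passed lies lower on the H1-labelled arrays, and Sgs3 spreads over 6.24 among them.

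Of 16 genes for ER folding and the unfolded protein response, 5 were lower, 4 higher and 7 did not pass, with a median of −0.13. The chaperone Hsc70-3 (BiP) read 13.13, 13.29 and 13.23 against 12.97, 13.05 and 13.12 and did not pass (adjusted p = 0.216). The lower count was 3 without H1 array a and 3 without nau array b. The unfolded protein response sensor PEK was 0.48 higher and the degradation ligase sip3 fell by 1.05. For granule secretion, 6 of 13 genes were lower and 3 higher. AP-1sigma, of the clathrin adaptor that glue granules need to mature, read 10.59, 10.32 and 10.40 against 9.38, 9.40 and 9.19 and fell by 1.11. Snap25, a membrane fusion protein best known from synapses, read 3.66, 3.50 and 3.27 against 8.59, 8.41 and 8.68, an increase of 5.08 from values near background.

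Of 24 genes for ribosome biogenesis and RNA polymerase I, 17 were higher and 1 lower, with a median of 0.79. The count was 11 without H1 array b. The ribosome assembly factor ppan read 6.74, 6.31 and 5.63 against 7.96, 8.14 and 8.04, and Polr1B, the second largest subunit of RNA polymerase I, read 7.24, 6.55 and 6.34 against 7.99, 8.20 and 7.995. Both were higher on every H1-labelled array, by 1.82 and 1.35 (adjusted p = 0.00157 and 0.00314), and for both the level was lowest on nau array c. The member that fell was Mnt, the repressor that opposes Myc, at 8.68, 8.44 and 8.58 against 7.25, 7.02 and 6.98 (log2 change −1.49, adjusted p = 9.68e-05). Among 23 initiation factors 11 were lower and 2 higher. The ribosome assembly and anti-association factor eIF6 rose by 1.28 and the subunit joining factor eIF5B fell by 0.95, and the other higher call, eIF2beta, was lost without H1 array b, H1 array c or nau array c.

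Of 18 cytosolic tRNA synthetases, which charge tRNAs, 8 were lower and 1 (HisRS) was higher, HisRS only with all arrays or without nau array b, and 1 of the 8 was read through a probe set that could not be told apart from a neighbour. TrpRS, for tryptophan, read 12.28, 12.34 and 12.47 against 9.77, 9.74 and 9.95 on its brightest probe set. These values are within 0.01 of those of sage on each nau-labelled array, and sage is the gene next to TrpRS in RefSeq order. The other TrpRS probe sets read 9.17 against 8.80 and 10.38 against 10.11 as group means, with log2 changes of −0.37 (adjusted p = 0.0223) and −0.27 (adjusted p = 0.0522). The large change of TrpRS is therefore uncertain. The synthetases that fell without such doubt did so by 0.34 to 0.61, as with ValRS at 9.10, 9.15 and 9.03 against 8.47, 8.58 and 8.39.

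Of 10 glycolytic genes 5 were higher and none lower, a count that was 3 without H1 array b, nau array b or nau array c. Triose phosphate isomerase (Tpi) read 10.82, 10.78 and 10.46 against 11.96, 12.07 and 12.01, an increase of 1.32 ± 0.12 with no overlap (adjusted p = 0.000196), and hexokinase A (Hex-A) rose by 0.87. In the citric acid cycle 4 of 13 were higher and 5 lower, with the isocitrate dehydrogenases in both directions: Idh rose by 0.98 and Idh3g fell by 0.83. For complex I of the respiratory chain, 9 of 26 were lower and none higher, led by ND-B17 at 10.35, 10.21 and 10.32 against 9.49, 9.45 and 9.46. ATP synthase had 4 lower and 3 higher of 14, and without H1 array b the counts were 2 and 1, and without H1 array c the lower count was 1.

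Of 18 genes of the V-ATPase, the proton pump that acidifies lysosomes and secretory organelles, 11 were lower and none higher, with a median of −0.41. Vha100-2, of the membrane sector, read 11.05, 10.98 and 11.06 against 10.03, 10.13 and 10.19, and Vha36-1, of the stalk, read 11.61, 11.50 and 11.53 against 10.65, 10.64 and 10.81. Both subunits fell with no overlap, by 0.91 and 0.85 (adjusted p = 0.000292 and 0.000485). For the proteasome 8 of 26 were lower and 1 higher, with every lower member in the regulatory cap. The member that was higher, Prosbeta6, lost its call without each array, and the lower count was 5 when H1 array a was left out and 4 when H1 array b was. The cap subunit Rpn1 read 9.60, 9.61 and 9.83 against 8.30, 8.18 and 8.17 and fell by 1.46. For autophagy 7 of 23 were lower and 2 higher, with 4 lower without nau array b and 1 higher when any array other than nau array a was left out, and the ubiquitin-like protein Atg8a, which coats autophagosomes, did not pass (log2 change 0.25).

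Of 26 genes of the ecdysone cascade, which times larval stages, 13 were lower and 6 higher, with 8 lower without H1 array c. The receptor gene EcR read 9.19, 9.53 and 9.53 against 8.20, 8.19 and 7.78 and fell by 1.36 (adjusted p = 0.000564). The nuclear receptor ftz-f1, expressed when the hormone falls before pupation, read 5.94, 5.92 and 5.94 against 9.52, 9.35 and 8.50, an increase of 3.19 ± 0.25 with no overlap (adjusted p = 0.0001). Eip78C, an early target, read 5.69, 5.84 and 7.80 against 3.43, 3.84 and 3.43 and fell by 2.88, and the ABC transporter gene E23 read 8.67, 9.09 and 9.95 against 6.80, 6.61 and 6.25, which fell by 2.68. For EcR, Eip78C, Hr4, Hr39 and E23, nau array c held the highest nau-labelled value or shared it. Hr4, at 6.01, 4.90 and 7.85 against 3.66, 3.48 and 3.37, lost its call without H1 array c. The ecdysone importer Oatp74D rose by 1.25. Since the labels give no stage, a difference of stage between the groups was not tested.

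Among the 9 late ecdysone-induced 71E genes, 5 were lower and none higher, and 3 were at background on all 6 arrays. The 5 include Eig71Ee, which was already counted among the glue and gland products. Eig71Ea read 9.94, 9.98 and 10.46 against 5.04, 5.46 and 5.57 and fell by 4.77 (adjusted p = 7.68e-06). Eig71Eg read 8.55, 6.19 and 9.15 against 2.78, 2.61 and 2.83, below background on all 3 H1-labelled arrays and at least 4.37 lower. Eig71Ek was called lower but was at background on all 6 arrays, so its difference is not a measured level.

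Apoptosis genes were mixed, with 4 of 14 higher and 5 lower, counts that no single array changed. The effector caspase gene Dcp-1 read 3.79, 3.62 and 3.84 against 7.78, 7.71 and 7.83, from near background to a clear signal on every H1-labelled array, with an increase of 4.02 ± 0.10 (adjusted p = 1.12e-06). The apoptosome adaptor Dark read 7.95, 7.96 and 8.62 against 6.33, 6.21 and 5.96 and fell by 2.01. Within the Bcl-2 family Buffy fell by 1.96 and Debcl rose by 1.05. The death inducer grim was at background on all 6 arrays, and skl was above it on H1 array a only.

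**Figure D4:**
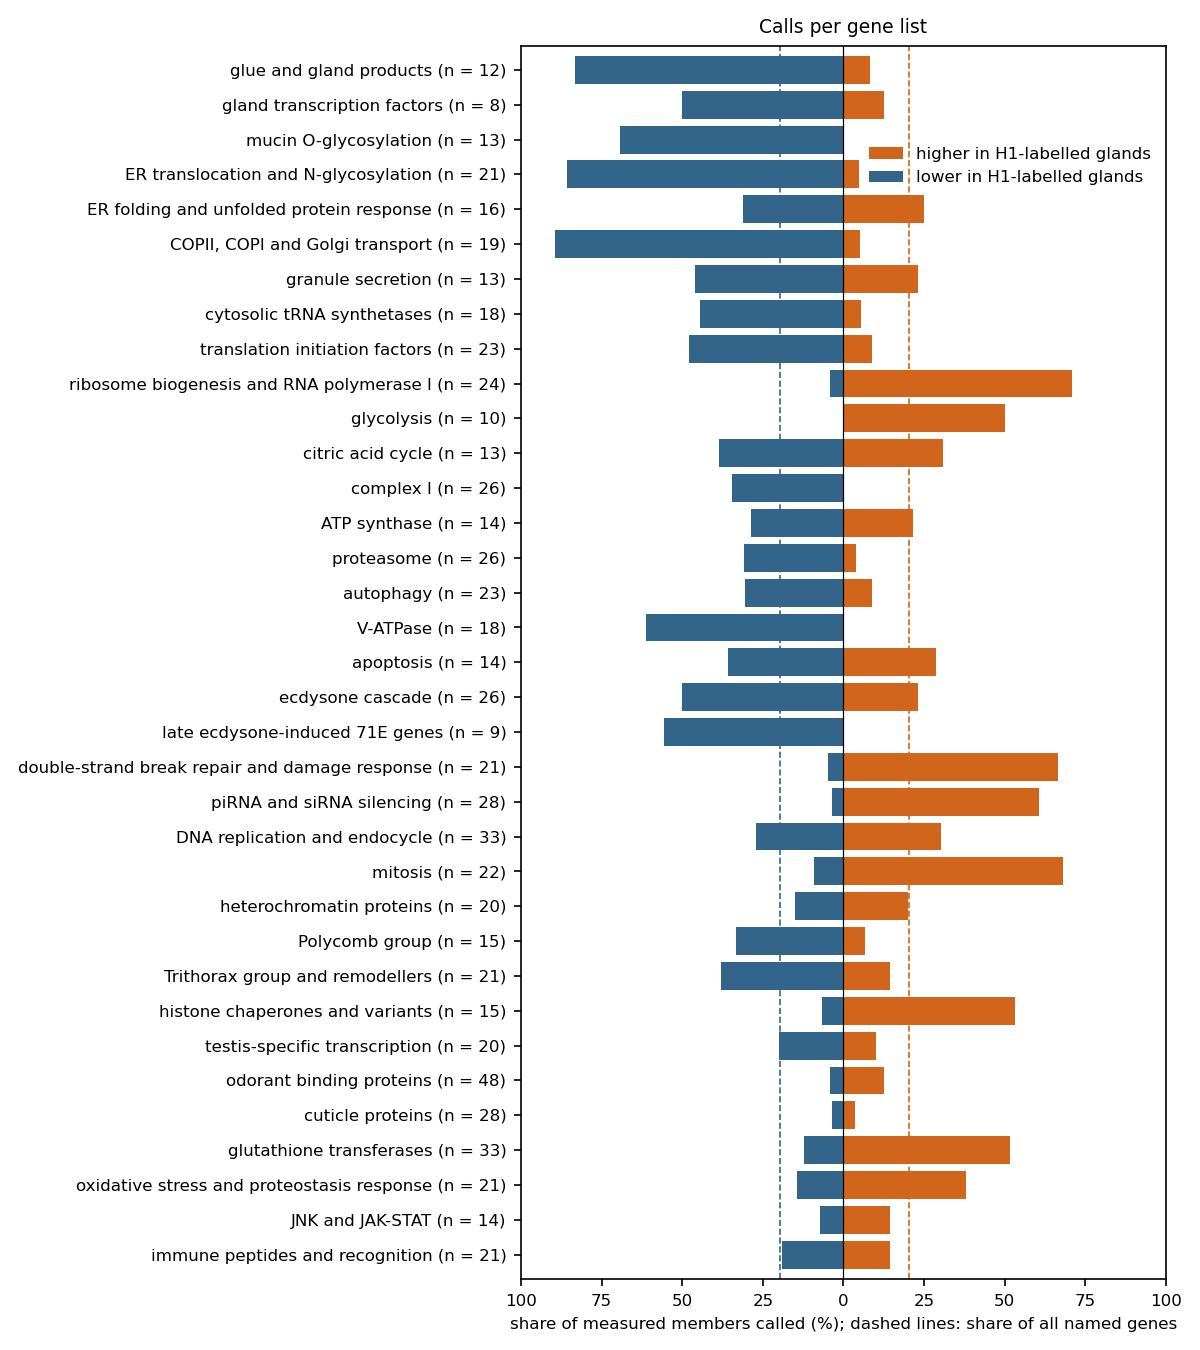
Share of the measured members of each gene list called higher (orange, right) or lower (blue, left) in H1-labelled glands, in percent, with the number measured in brackets. Dashed lines mark the shares of all named genes, 20.4% higher and 19.7% lower. Lists of the secretory pathway extend to the left, and those of break repair, silencing, mitosis and ribosome biogenesis to the right.

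Genes for sensing and joining broken DNA were higher. Of 21 genes for double-strand break repair and the damage response, 14 were higher and 1 lower, with a median of 1.06. The MRN complex, which binds broken ends, rose in all 3 subunits: mre11 read 5.50, 5.21 and 5.27 against 8.998, 9.25 and 9.30, rad50 read 7.29, 7.42 and 6.96 against 10.15, 10.16 and 10.34 and nbs read 6.87, 6.78 and 6.48 against 8.68, 8.77 and 9.15. No subunit overlapped between the groups, with changes of 3.86 ± 0.12, 2.99 ± 0.14 and 2.15 ± 0.16 (adjusted p = 3.18e-06, 1.2e-05 and 8.39e-05). The end-joining proteins followed, with Irbp (Ku70) at 5.02, 5.54 and 4.72 against 8.79, 8.83 and 9.15 and Ku80 at 5.08, 5.12 and 5.28 against 8.41, 8.40 and 8.82. Ligase DNAlig4 rose by 1.71 and p53 by 1.80, and agt, an alkylguanine transferase that repairs single bases, rose by 3.12. The checkpoint kinase gene mei-41 (ATR) did not pass (5.24, 5.45 and 4.82 against 5.26, 5.38 and 5.31), and grp (Chk1) was the member that fell, a call lost without H1 array b, H1 array c, nau array b or nau array c.

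Genes of small-RNA silencing, most of which are known from the germline, were higher as well. Of 28 measured, 17 were higher and 1 lower, with a median of 0.75. The double-stranded RNA binding protein gene blanks read 4.80, 5.21 and 4.98 against 11.66, 11.35 and 11.86, the helicase gene spn-E read 5.42, 4.87 and 5.01 against 8.82, 8.66 and 9.11, and the piRNA Argonaute AGO3 read 4.51, 4.54 and 4.63 against 8.19, 7.86 and 8.19. Each was between 3.52 and 6.62 higher, and the arrays of a group lay within 0.55 of each other. Deadlock (del), a cofactor of piRNA cluster transcription, went from background (3.43, 2.90 and 3.01) to 7.37, 7.42 and 8.04, at least 4.02 higher. Marf1, an RNA regulator of the female germline, read 3.11, 4.07 and 3.85 against 10.46, 10.32 and 10.69, an increase of 6.81.

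The nuclear piRNA Argonaute piwi read 3.56, 3.54 and 3.60 against 3.82, 3.45 and 3.73, close to background in both groups, and the germline helicase vas was at background on every array. The siRNA enzyme Dcr-2, at 9.40, 9.42 and 9.74 against 9.41, 9.38 and 9.43, did not pass (adjusted p = 0.482), and Panx, a co-transcriptional silencing factor, was the member that fell, by 0.69. Of the testis and germline markers, 5 of 9 were at background on all 6 arrays, and summed intensity was 2242 to 2402 against 1998 to 2053.

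Of 33 replication and endocycle genes 10 were higher and 9 lower, with a median of 0.06. The single-strand binding complex RPA, which also covers resected breaks, rose in all 3 subunits, with RPA1 at 8.78, 8.71 and 8.57 against 11.29, 11.31 and 11.36, RPA3 at 7.51, 7.25 and 7.21 against 9.99, 9.96 and 10.19 and RPA2 at 7.63, 7.28 and 7.25 against 8.89, 8.96 and 8.98. These rose by 2.63, 2.73 and 1.56, with groups far apart. The clamp PCNA and the clamp loader RfC4 rose by 1.49 and 1.81. Among genes that license origins or drive the endocycle, Orc1 read 7.44, 7.65 and 7.19 against 5.88, 6.12 and 5.45 and fell by 1.60, Cdc6 fell by 0.72, Cdk2 by 0.87 and fzr, which switches cells into endocycles, by 1.09. Of the MCM helicase subunits measured, Mcm6 rose by 0.63 and Mcm2, Mcm3 and Mcm5 did not pass, nor did Orc2, Orc4, Orc5 or CycE. Members named here beyond the 5 largest changes were chosen after their values were seen.

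Of 22 mitotic genes measured, in a tissue whose secretory cells do not divide, 15 were higher and 2 lower, with a median of 1.03. The lower count was 1 without H1 array b, nau array a or nau array b. The chromosomal passenger genes Incenp and borr read 4.79, 4.32 and 4.09 against 6.88, 6.31 and 6.43 and 4.07, 3.998 and 3.89 against 6.86, 5.79 and 6.21, with no overlap and H1 array a highest. The separase gene thr rose by 1.76, its inhibitor pim by 1.74 and the condensin subunit SMC2 by 1.60. The salivary gland also holds diploid imaginal ring cells, and of the 8 imaginal markers measured 2 were higher (1 when any array other than H1 array c was left out) and none lower, with summed intensity of 532 to 614 against 701 to 749. Their part in the mitotic counts was not tested.

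**Figure D5:**
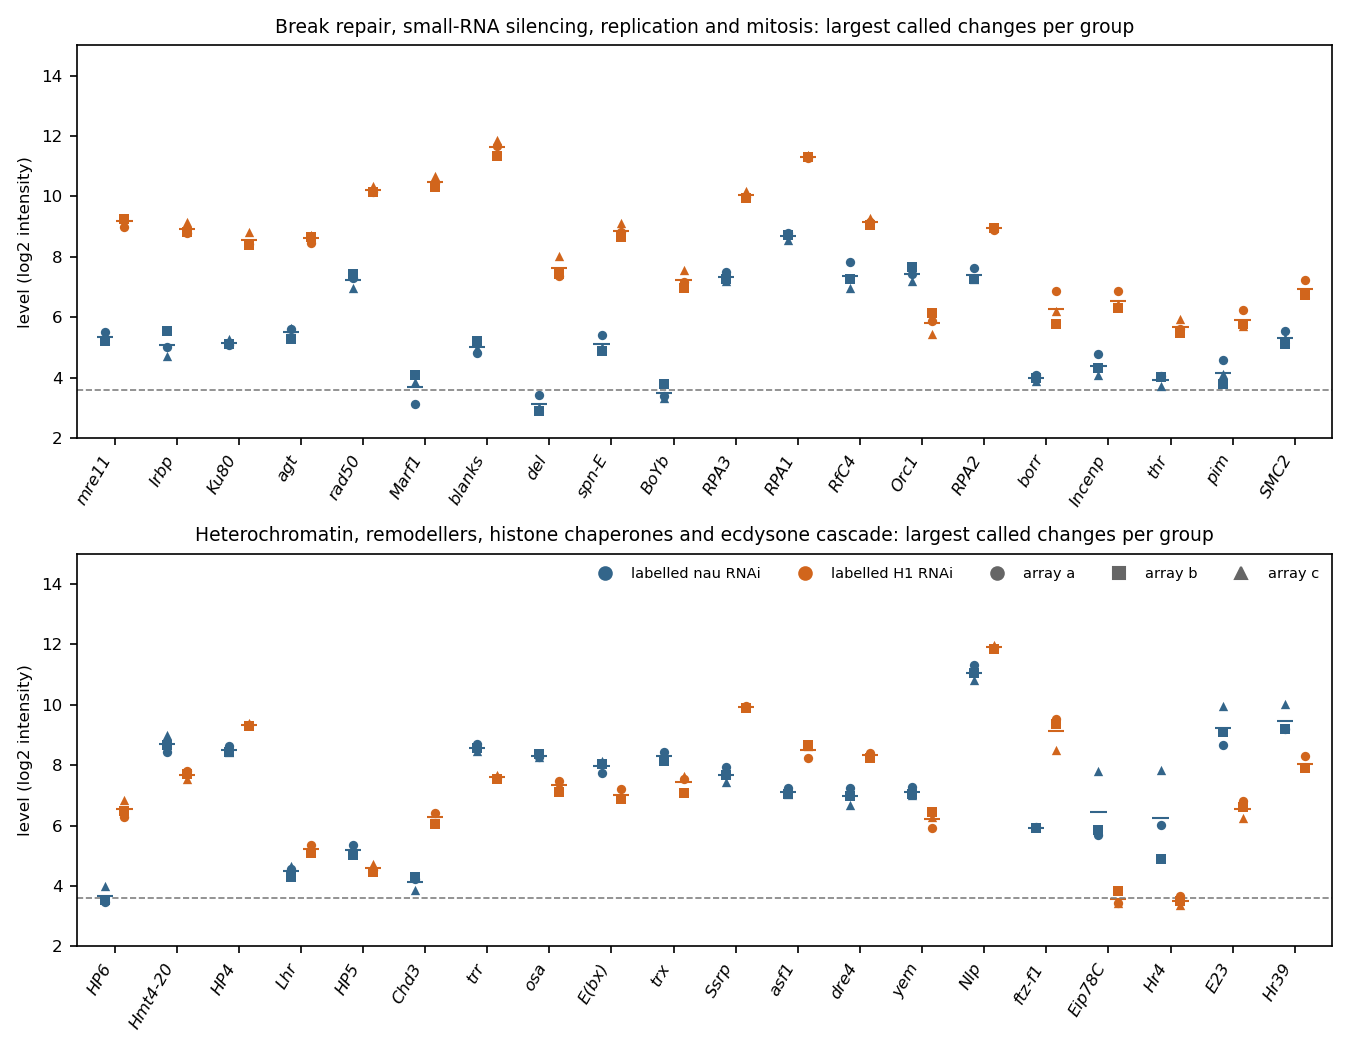
Log2 intensity by array for the 5 largest called changes of each of 8 nuclear gene groups, given in the panel titles. Blue marks nau-labelled and orange H1-labelled glands, marker shape the array letter, short bars the means of 3 arrays and the dashed line the background of 3.59. Break repair and silencing genes lie at 6.95 or above on all H1-labelled arrays, and the ecdysone genes other than ftz-f1 lie lower there.

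Of 20 heterochromatin proteins 4 were higher and 3 lower, shares close to those of all genes. HP1a, the core heterochromatin protein and a binding partner of H1, read 10.13, 9.90 and 9.74 against 10.30, 10.06 and 10.15 and did not pass (adjusted p = 0.18). HP6, a short HP1 paralogue, went from 3.48, 3.53 and 4.01 to 6.28, 6.47 and 6.85, an increase of 2.86 ± 0.20 (adjusted p = 6.05e-05), and HP4 rose by 0.83. Hmt4-20, which methylates histone H4 at heterochromatin, read 8.43, 8.66 and 8.99 against 7.80, 7.71 and 7.53 and fell by 1.01.

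Histone chaperones and variants had 8 of 15 higher and 1 lower, with a median of 0.47. Both subunits of FACT, which moves nucleosomes during transcription and replication, rose: Ssrp read 7.94, 7.66 and 7.43 against 9.98, 9.90 and 9.92 and dre4 read 7.24, 6.97 and 6.70 against 8.42, 8.25 and 8.31. The H3–H4 chaperone asf1 read 7.23, 7.06 and 7.04 against 8.23, 8.67 and 8.62, and the variant His2Av, which is phosphorylated at DNA breaks, rose by 0.50. The changes of Ssrp and asf1 were 2.25 and 1.40 with no overlap (adjusted p = 3.47e-05 and 0.000305). yem, which works with the H3.3 chaperone Hira, was the member that fell, by 0.90, and Hira itself did not pass (−0.10).

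Polycomb group genes had 1 of 15 higher and 5 lower. The lower count was 2 without H1 array b, nau array b or nau array c and 3 without H1 array c, and the higher count was 2 without H1 array b or nau array a. The member that rose was escl, a paralogue of the Polycomb subunit esc, at 4.47, 4.66 and 4.99 against 6.98, 6.66 and 7.10 (log2 change 2.20). Among 21 Trithorax genes and remodellers 8 were lower and 3 higher. The histone H3 methyltransferase gene trr fell by 0.98, the SWI/SNF subunit gene osa by 0.97 and E(bx), a NURF subunit gene, by 0.96, whereas the remodeller Chd3 rose from 4.23, 4.28 and 3.87 to 6.41, 6.04 and 6.42.

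Of 33 glutathione transferases, enzymes that conjugate glutathione to toxic compounds, 17 were higher and 4 lower, with a median of 0.53. GstE6 read 6.88, 6.74 and 6.53 against 11.996, 12.17 and 12.31, GstE5 read 4.31, 4.20 and 3.85 against 8.49, 9.01 and 9.44 and GstD5 read 4.01, 3.70 and 3.61 against 8.07, 8.15 and 8.14. All 3 were at least 4 higher on every H1-labelled array than on any nau-labelled array, and the changes were 5.44, 4.86 and 4.35 (adjusted p = 1.12e-06, 1.75e-05 and 1.98e-06). GstD1 went the other way (12.85, 12.82 and 12.86 against 12.39, 12.54 and 12.41) and fell by 0.40, as did GstE11 (−1.55). Of the 4 lower calls 2 were lost without H1 array a, b or c or nau array b. Sequence-related transferases can share probes, which was not tested.

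Of 21 genes of the oxidative stress and proteostasis response, 8 were higher and 3 lower. The metal-binding metallothionein MtnD read 6.60, 6.75 and 6.12 against 10.09, 10.19 and 9.95 and MtnA read 12.13, 12.11 and 11.75 against 13.57, 13.51 and 13.57, while MtnB and MtnC were at background in both groups. MtnD and MtnA rose by 3.59 and 1.55 (adjusted p = 1.33e-05 and 0.000111). The mitochondrial chaperone Hsp60A and the thioredoxin reductase Trxr1 rose by 1.28 and 1.13, the peroxiredoxin Prx6c fell by 2.54, and Keap1, the inhibitor of the factor cnc, fell by 1.01. The inducible heat shock gene Hsp68, at 8.35, 7.67 and 6.88 against 8.21, 8.95 and 9.88, did not pass.

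All 5 measured Turandot genes, which encode stress-induced secreted peptides, were higher, a family chosen after its values were seen, and 4 were without H1 array b or c. TotC read 4.37, 9.30 and 8.84 against 13.22, 13.35 and 13.57 and TotB read 3.01, 6.82 and 6.43 against 11.34, 11.66 and 12.09. On nau array a both were near background, on nau arrays b and c they were raised, and on all H1-labelled arrays they were higher still. The changes were 5.87 ± 1.18 and 6.28 ± 0.93 (adjusted p = 0.00775 and 0.00188), and for TotE, at 3.52, 9.05 and 8.42 against 11.06, 12.40 and 12.40, the call was lost without H1 array b or c and with a robust prior. Of 14 genes of the JNK and JAK-STAT pathways, 2 were higher (1 without H1 array a or c or nau array a or b) and 1 lower. Both shares were under those of all named genes (20.4% and 19.7%). The higher members were TotC, already given above, and puc (0.67). Stat92E, the transcription factor of the JAK-STAT pathway, did not pass (0.20).

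Immune genes had 3 of 21 higher and 4 lower, and 6 higher without nau array b. With all arrays neither share was above that of all named genes (20.4% and 19.7%). The lower members include spz and imd, which fell by 0.69 and 0.61 and kept their calls without each array. The antibacterial peptide gene AttD read 4.01, 4.23 and 6.32 against 11.11, 11.07 and 10.93, with an increase of 6.19 (adjusted p = 0.000195), and the antifungal peptide gene Drs read 10.30, 10.13 and 9.81 against 12.04, 12.58 and 11.92, with an increase of 2.10. The peptide genes Mtk, DptB, CecB and Def did not pass, and for each of these nau array b was the highest nau-labelled array. Among 48 odorant binding proteins, a family of small secreted carriers, 6 were higher and 2 lower, and 1 lower without H1 array b or c. Obp50e read 3.03, 3.33 and 3.38 against 10.33, 10.10 and 10.38, at least 6.68 higher, and Obp44a read 5.41, 5.43 and 5.31 against 11.81, 9.48 and 9.99. Obp83ef read 9.67, 9.89 and 10.55 against 6.99, 6.81 and 6.60 and fell by 3.24. Of 28 cuticle proteins 1 was higher (Cpr72Ec, 1.95) and 1 lower (Edg91, −0.56), and 2 were higher without H1 array b or c.

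CG13135 read 4.05, 4.30 and 3.79 against 12.26, 12.06 and 12.08, the largest increase of any called gene (8.09 ± 0.14, adjusted p = 6.51e-07). Taf12L, a testis form of the general transcription factor subunit TAF12, read 3.42, 5.57 and 6.06 against 12.56, 12.43 and 12.81. Both genes read above 12 on every H1-labelled array, and nau array a was the lowest for Taf12L. Of the 20 genes of testis-specific transcription measured with it, 7 were at background on all 6 arrays, and bol, a meiotic translation factor, was the other member that was higher (0.55). The level of bol was near background (3.91 against 4.46 as group means), and its call was lost when all probe sets of a gene were averaged. In the testis-specific list 4 were lower, 1 or 2 without H1 array a, b or c or nau array a or b, and 1 with a pseudocount of 16. The planar polarity cadherin gene stan read 2.99, 3.27 and 3.25 against 9.74, 9.94 and 10.31, and the phosphate transporter gene NaPi-III read 4.28, 4.64 and 4.66 against 10.92, 10.93 and 10.84. CG8620, CG14545, lncRNA:CR42646 and CG12493 rose by 7.33, at least 6.99, at least 6.51 and 6.88.

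The cryptochrome gene cry, a blue-light receptor of the circadian clock, read 8.22, 8.07 and 8.24 against 3.56, 3.41 and 3.36, a signal on each nau-labelled array and background on each H1-labelled array, at least 4.59 lower. SmydA-9, of the SET and MYND domain family, read 10.29, 10.15 and 9.95 against 4.40, 4.45 and 4.77 (−5.59 ± 0.14, adjusted p = 1.12e-06). The sterol-binding family gene Npc2e read 7.71, 8.28 and 9.85 against 3.81, 3.21 and 3.35, and the scavenger receptor gene santa-maria, which takes up carotenoids, read 9.39, 9.61 and 10.71 against 5.87, 4.01 and 5.46. The latter pair fell on every H1-labelled array and was highest on nau array c. CG34276 fell by 5.13, CG9812 by 4.98 and CG13101 by 4.86.

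Some genes crossed the background altogether. Of 11982 named genes, 141 were above background on all 3 H1-labelled arrays and at background on all 3 nau-labelled arrays. A crossing needed no call, and the same cutoff served both labels although the Tag signal was lower in H1-labelled glands. Of the 141 genes, 26 had a mean of at least 6 in H1-labelled glands. They include the homeobox genes slou (7.33, 6.88 and 7.42) and toy (8.12, 7.27 and 7.42), which act in muscle and eye development, and the gap junction gene Inx7 (6.74, 6.85 and 6.91). In the opposite direction 120 genes crossed, 8 of them from a mean of at least 6, among them the transporter gene ine at 7.06, 7.21 and 7.85 against 3.26, 3.298 and 3.54. Of the 26, CG6933 (9.25, 6.26 and 4.78) and CG13928 (8.62, 4.91 and 4.63) were high mainly on H1 array a. CG13928 did not pass the limma test (adjusted p = 0.0742), and CG6933 lost its call without H1 array b or any 1 of the nau-labelled arrays. These examples were chosen after their values were seen.

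In Kc cells, a cell line of embryonic origin given dsRNA against H1 or GFP (2 arrays each), the same genes were read. The difference between the gland change and the Kc change passed the test for 24 of the 25 genes with the largest gland changes or named as target, and not for Sgs3 (adjusted p = 0.0684), which passed without H1 array b or H1 array c. Apart from nau, these genes were chosen by their gland change on the same arrays, which favours passing. The count therefore says little about how often the 2 systems differ. The genes NaPi-III, blanks, CG12493 and Taf12L were called in the same direction in Kc cells, with log2 changes of 1.26, 0.84, 1.20 and 3.08. CG14545, at background in nau-labelled glands, had a level of 12.07 in Kc cells given dsRNA against GFP and 12.23 with dsRNA against H1. The nau probe set went up in Kc cells, from 5.96 to 7.02.

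Markers of other tissues were read as lists. Salivary gland markers were present in all arrays, with 8 of 10 lower and none higher, and their summed intensity was 106500 to 110700 in nau-labelled against 25500 to 28730 in H1-labelled glands. The 8 lower markers are Sgs genes, fkh and sage, which were already counted above, so this is no separate reading. The other members, PH4alphaSG1 and PH4alphaSG2, did not pass. Of the fat body markers, the storage protein gene Lsp2 read 14.03, 14.09 and 14.05 against 14.10, 14.04 and 14.10 and the lipoprotein gene apolpp 13.56, 13.63 and 13.59 against 13.83, 13.79 and 13.82, close to the ceiling in both groups. In all, 2 of 6 were higher and 1 lower, Yp1 was at background on every array but H1 array c, and the sums were 50790 to 54040 against 57310 to 59380. The lower member, Fbp1, lost its call without H1 array b or c or nau array b or c. The part of fat body RNA in the results was not tested.

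Haemocyte markers were higher in 9 of 14 cases and lower in 1, with sums of 5736 to 6752 against 9448 to 10040 and lz at background in both groups. The haemocyte membrane gene He read 4.29, 4.63 and 4.75 against 7.65, 7.01 and 8.42 and the basement membrane gene Ppn 5.10, 4.57 and 4.84 against 8.18, 7.79 and 8.40. The lower haemocyte marker was Pxn, which kept its call without each array, with log2 changes between −1.40 and −0.98. For neurons and glia 6 of 11 were higher (3 with a pseudocount of 16) and 1 lower, with sums of 930 to 1075 against 1982 to 2496. Most of each sum came from 1 member, moody, at 9.23, 9.42 and 9.59 against 10.59, 10.55 and 10.68. These sums therefore do not show a broad rise of neuronal RNA. The neuronal gene elav read 4.46, 4.13 and 4.15 against 7.78, 5.41 and 5.68, highest on H1 array a and not called without nau array a, b or c. The lower neuronal member, brp, was called only with all arrays or without H1 array a. Midgut sums were 137 to 155 against 190 to 762, again highest on H1 array a, with 3 of 8 higher (1 without nau array a, b or c and 1 with a pseudocount of 16) and 1, at background on all 6 arrays, lower. For muscle 2 of 6 were higher (1 without H1 array c, nau array a or nau array b) and 1 lower (2 without nau array c), with sums of 1375 to 1548 against 910 to 1155. The lower member, the titin gene sls, read 9.702, 9.62 and 9.44 against 6.61, 5.53 and 5.75 on the brightest of its 3 probe sets. The lower sum rests on sls alone, while the higher members Mlc2 and bt rose by 1.21 and 0.84. For trachea and epidermis 1 of 8 was higher (none without nau array a, b or c) and none lower, with sums of 1170 to 1342 against 1331 to 1779. The part of these cells in the results was not tested.

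Some genes spread widely among arrays of 1 label. Obp56d read 5.60, 11.91 and 6.60 in nau-labelled and 12.12, 9.53 and 7.71 in H1-labelled glands, and CG42834 read 4.63, 10.32 and 3.44 against 10.37, 6.76 and 3.53. CG14332 and CG33333 followed the same order, with nau array b and H1 array a high. In none of these 4 genes did the groups differ beyond their spread (adjusted p from 0.48 to 0.84). Within H1-labelled glands CG17283 read 10.54, 12.16 and 6.10 and CG9682 read 8.66, 5.11 and 2.74, with array c lowest for both.

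Along 11899 genes in RefSeq order, 5 runs of at least 6 neighbouring measured genes were called in 1 direction, 3 higher and 2 lower, and the longest held 7. Such runs depended on single arrays: of the 5, none kept at least 6 genes without H1 array c or nau array b. Only 1 did so without H1 array a, H1 array b or nau array c, and 3 did without nau array a. One run of higher calls, CG18581 to Plp, includes CG12310 (13.90, 13.85 and 13.84 against 14.14, 14.22 and 14.26), whose call was lost without H1 array b, H1 array c or nau array b, and a run of lower calls lies between Chc and UBL3. Of 1094 genes with several probe sets, 133 were called in the same direction by all of them and 38 in opposite directions. In 3 of these the change was at least 2-fold each way. Gfat1, which makes the amino sugar for glycans, read 10.62 against 8.99 on one probe set and 4.44 against 7.26 on another, as group means. The sulfotransferase gene pip had 4 probe sets at least 2-fold lower, with log2 changes from −2.39 to −1.17, and 1 that was higher, at 8.24 against 9.47. Whether such probe sets read different transcripts was not tested.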

How the data were processed

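Affymetrix Drosophila arrays measured labelled RNA of salivary glands (3 arrays per label) and Kc cells (2 per treatment). The values are the authors' deposited intensity values, made by RMA per the submitters' processing notes, from which log2 was taken. Of 18952 probe sets, 183 controls were left out and 18769 tested. GEO's platform annotation gave 1 symbol to 13647, several to 402 and none to 4720, and 13544 matched RefSeq by gene number. A gene is represented by its brightest probe set over the gland arrays.

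The 6 gland arrays were fitted with limma 3.58.1 in R 4.3.3 (lmFit, eBayes), with Benjamini-Hochberg adjustment over all probe sets and a threshold of 0.05. The code was tested on simulated data. The gland and Kc effects were compared in a fit of all 10 arrays, and control differences by exact permutation. Bounds replace folds for genes at background on all 3 arrays of a group, taken against 3.59. Text names nau, the 12 largest changes per direction, the 25 most abundant genes, the widest spreads, runs of neighbours and up to 5 called members per list (44 lists, 947 symbols, 766 measured), besides members that did not pass. Other genes were chosen after their values were seen. Members and lists were chosen with earlier results of these data known. Alternatives covered filtering, fit, scaling, pseudocount, probe set averaging, pairing and leaving out each array.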

Additional observations from a re-analysis of the deposited data

Results flagged for a closer look

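For 24 of the genes with the largest gland changes, or named as RNAi target, the change in H1-labelled against nau-labelled glands differed from the change in Kc cells given dsRNA against H1 or GFP. The difference was tested as an interaction contrast in limma on all 10 arrays, with p adjusted over all probe sets, and passed for each gene below. Apart from nau, the genes were chosen by the size of the gland change on the same arrays, so passing was favoured by the choice. The differences given are gland change minus Kc change on the log2 scale.

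The nau probe set differed by −3.27, since it was lower in H1-labelled glands and higher in Kc cells given dsRNA against H1. Among the increases, the differences were 8.22 for CG13135, 7.13 for CG14545, 7.05 for Obp50e and 7.03 for lncRNA:CR42646. They were 6.88 for stan, 6.57 for TotB, 6.56 for Marf1 and 6.48 for CG8620. Of the 4 genes that rose in Kc cells too, blanks differed by 5.78, CG12493 by 5.68, NaPi-III by 5.11 and Taf12L by 4.50, so the gland increase was the larger one. In GFP-treated Kc cells, however, blanks, Marf1, CG14545 and CG8620 already read 11.76, 12.16, 12.07 and 9.74. For these genes a Kc increase of the gland size would have exceeded the array maximum.

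Among the decreases, the differences were −6.29 for Sgs1, −5.35 for SmydA-9, −5.34 for Npc2e and −5.29 for santa-maria. They were −5.11 for Eig71Eg, −5.03 for Sgs4, −5.01 for CG34276 and −4.95 for CG13101. For CG9812 the difference was −4.77, for cry −4.70 and for Eig71Ea −4.62. In GFP-treated Kc cells the genes that fell in glands had levels between 2.71 and 4.16, at or near background, so a decrease there could hardly be measured. For genes at background in 1 gland group or in Kc cells the value is a difference of fitted values and no bound. The Kc comparison rests on 2 arrays per treatment.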

How the results depend on the processing

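Counts of called probe sets kept within 1.5 times the reported counts under every alternative run, with no reversal among the results computed. Leaving out each array in turn gave 2490 to 2867 higher and 2542 to 2888 lower. Centring gave 2786 and 3830, quantile normalization 2733 and 3640, a pseudocount of 16 gave 3010 and 3123, and the fit of all 10 arrays 3525 and 4106. No label states that the letters a, b and c pair the arrays, and the deviations of same-lettered arrays correlated at −0.07, 0.09 and 0.07. Correlations this weak cannot show that no cross, day or batch was shared. With the letter as a replicate block, 2872 were higher and 2799 lower. Of 447 called genes of the lists or named, 346 kept their call without each array and 380 under the other settings. Gene-list counts of 4 or more that leaving out 1 array moved by over 1.5 times are given with them above. The other settings moved 26 of 79 list counts by over 1.5 times, 21 of them counts of 3 or fewer. A pseudocount of 16 took the higher neuronal markers from 6 to 3 and the lower testis-specific genes from 4 to 1, and the replicate block took lower calls from 4 to 2 for ATP synthase and from 5 to 3 for ER folding and for Polycomb genes. Signal close to background or to the array maximum limits what could be measured, and 1971 genes were at background on all 6 arrays.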
